A study of Mus musculus with 8 samples.

Results

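Genes for proteins of the mitochondrial ribosome were taken as every gene of the deposited table named Mrpl or Mrps followed by a number, with pseudogenes left out by their names. This gave 77 genes of 47643, and the 5 names marked as pseudogenes were set aside. This ribosome translates the few proteins that mitochondrial DNA encodes, all of them subunits of the respiratory chain and ATP synthase. Its RNAs come from mitochondrial DNA, whereas every one of its proteins is encoded in the nucleus, made in the cytoplasm and imported. The particle descends from a bacterial ribosome and has gained proteins that bacteria lack, and in skeletal muscle, a tissue rich in mitochondria, it supplies the core of oxidative phosphorylation.

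Quadriceps RNA of 8 mice, labelled C57BL/6 and backcrossed to C57BL/6J by the study's methods, was sequenced, 4 labelled *Nup210*+/+ and 4 labelled *Nup210*-/-, with 1 library per mouse. *Nup210* encodes a nucleoporin, a protein of the nuclear pore, and the knockout is constitutive: Hprt-Cre removed a floxed exon 2 in all tissues, and both genotypes were on the same strain background. No treatment is described for either group, and age and sex are not given for these animals in the sources used here. The question was how muscle expression differs without Nup210, and here it was asked of the mitochondrial ribosome. The values are TPM (transcripts per 1000000 transcripts), a unit that corrects for transcript length and can therefore be compared between genes. They are relative to the whole library. Read depth cannot be recovered from them, and precision therefore rests on the spread between mice.

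Some features of the libraries bear on what follows. *Nup210* mRNA ranged over 8.81 to 11.93 TPM with the label *Nup210*-/- and 5.71 to 10.11 TPM with the label *Nup210*+/+. Its estimate was 0.44 on the log2 scale (SE 0.147, adjusted p = 0.231 by limma), higher with the label *Nup210*-/-. Deleting 1 exon need not lower the TPM of a whole gene, so this value does not check the labels, which are used as given. All libraries had the summed 8 markers of myofibers at 89645.49 TPM or more. The library labelled *Nup210*+/+ replicate 2 stood apart, with 381.69 TPM summed over 6 granulocyte precursor markers against 0.31 to 2.12 TPM elsewhere, and 58.8 TPM over 6 markers of dividing cells against 1.51 to 3.48 TPM. Values without it are given below where it moved a result. In whole muscle, fewer cells of a type and less RNA per cell cannot be told apart.

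Of the 77 genes, 50 encode proteins of the large subunit, which forms peptide bonds, and 26 encode proteins of the small subunit, which reads the mRNA. Names and places differ in 3 cases. *Mrps18a* and *Mrps30* carry small-subunit names but their proteins sit in the large subunit, and the product of *Mrps36* was later assigned to the 2-oxoglutarate dehydrogenase complex of the citric acid cycle. The genes lie scattered over 17 chromosomes, with at most 10, on chromosome 11, in GENCODE M21 coordinates for GRCm38 (mm10). Divergent starts were more frequent than among other genes but not general. For 23 of the 77 genes (29.9%), the start of a protein-coding gene on the opposite strand lay within 1000 bases upstream or 200 bases inside the gene, against 11.7% of the 12402 protein-coding genes tested.

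RefSeq promoter windows on GRCm38.p6, from 250 bases before to 50 bases after a start, were matched by symbol for 68 of the 77 genes. They were searched on both strands for core letters of 3 factors known for nuclear genes of mitochondria. The core palindrome of NRF1 occurred in 13 of the 68 genes (19.1%), against 11.5% of the 9483 matched protein-coding genes that were tested and 5.19% of all 27025 genes with a window. The letters CCGGAAG, the ETS core bound by GABP, occurred in 25 (36.8%), against 19.7% and 9.93%. For YY1 the letters AAGATGGC occurred in 12 (17.6%), against 5.24% and 3.19%. None of the 3 strings contains another. At least 1 of the 3 was present in 42 genes and none in 26. A match describes the letters of the window and does not show binding. The 5 windows printed here belong to the gene with the highest mRNA level (*Mrpl42*), the 3 genes with an unadjusted p under 0.05 in the comparison of genotypes (*Mrps25*, *Mrpl49* and *Mrps36*) and *Mrps12*, which starts next to another gene of mitochondrial translation. Each is written 5′ to 3′ along the gene, and capitals mark matches to the 3 letter strings or their reverse complements.
*Mrpl42*, minus strand, chr10:95501900-95502199: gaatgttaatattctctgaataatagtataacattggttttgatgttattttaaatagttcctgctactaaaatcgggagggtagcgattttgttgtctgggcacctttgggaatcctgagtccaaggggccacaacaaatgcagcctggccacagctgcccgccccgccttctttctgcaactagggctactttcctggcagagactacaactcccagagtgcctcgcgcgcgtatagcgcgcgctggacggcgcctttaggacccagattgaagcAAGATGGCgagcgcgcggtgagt
*Mrps25*, minus strand, chr6:92183974-92184273: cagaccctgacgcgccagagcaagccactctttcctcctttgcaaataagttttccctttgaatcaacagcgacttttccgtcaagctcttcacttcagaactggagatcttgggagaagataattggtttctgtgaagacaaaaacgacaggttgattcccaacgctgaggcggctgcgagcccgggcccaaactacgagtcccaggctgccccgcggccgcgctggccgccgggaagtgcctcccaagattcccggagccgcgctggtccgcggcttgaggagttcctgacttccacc
*Mrpl49*, minus strand, chr19:6057706-6058005: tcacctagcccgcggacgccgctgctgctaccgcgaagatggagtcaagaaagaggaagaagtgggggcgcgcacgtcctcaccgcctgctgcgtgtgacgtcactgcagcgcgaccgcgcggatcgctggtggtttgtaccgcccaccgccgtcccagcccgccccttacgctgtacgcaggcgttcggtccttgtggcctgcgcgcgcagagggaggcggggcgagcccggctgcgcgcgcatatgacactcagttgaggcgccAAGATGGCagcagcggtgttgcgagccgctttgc
*Mrps36*, minus strand, chr13:100744610-100744909: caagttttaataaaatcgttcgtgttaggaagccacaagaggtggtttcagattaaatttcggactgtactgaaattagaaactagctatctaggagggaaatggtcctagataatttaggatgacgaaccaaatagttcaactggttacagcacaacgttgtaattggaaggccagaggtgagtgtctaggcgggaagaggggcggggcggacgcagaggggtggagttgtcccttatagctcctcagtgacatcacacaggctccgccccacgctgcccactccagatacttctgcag
*Mrps12*, minus strand, chr7:28741772-28742071: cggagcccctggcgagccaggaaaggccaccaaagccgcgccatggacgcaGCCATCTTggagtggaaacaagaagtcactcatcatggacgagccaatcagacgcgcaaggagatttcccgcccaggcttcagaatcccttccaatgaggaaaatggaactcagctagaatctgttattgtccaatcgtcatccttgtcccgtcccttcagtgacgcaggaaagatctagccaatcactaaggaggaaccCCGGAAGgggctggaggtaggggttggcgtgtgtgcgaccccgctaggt
In the windows of *Mrpl42* and *Mrpl49* the YY1 letters lie near the 3′ end, after the annotated start, in the same orientation as the gene. The windows of *Mrps25* and *Mrps36* held none of the 3 strings. The window of *Mrps12* held an ETS core and the YY1 letters in reverse, and 172 bases separate its start from that of *Sars2*, the mitochondrial seryl-tRNA synthetase. These YY1 letters lie near the 5′ end of the window, after the annotated start of *Sars2* and in the orientation of that gene.

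All 77 genes were expressed in every library and all passed the filter of a mean TPM of 0.5. Together they took 0.425 to 0.458% of TPM in the libraries labelled *Nup210*-/- and 0.453 to 0.462% in those labelled *Nup210*+/+. Their mean level over the 8 libraries ranged from 10.4 TPM for *Mrpl57* to 337 TPM for *Mrpl42*, with a median of 44.5 TPM. Although the proteins join 1 particle, mostly in single copies, their mRNA levels thus differed widely, and both subunits covered the range. The median level was 43.9 TPM for the large and 45.3 TPM for the small subunit.

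Among the highest were *Mrpl42*, *Mrps21* and *Mrpl30*. *Mrpl42*, which encodes a protein without a bacterial counterpart, was 352.74, 322.47, 352.43 and 335.58 TPM across replicates 1 to 4 labelled *Nup210*-/- and 354.6, 344.76, 308.52 and 324.16 TPM in those labelled *Nup210*+/+. The genotypes overlapped. *Mrps21*, the counterpart of a small bacterial protein of the small subunit, followed at 239 ± 9.94 TPM (SD, n = 4) and 249 ± 16.5 TPM (SD, n = 4), and its highest library, at 267.53 TPM, stayed below the lowest of *Mrpl42*. *Mrpl30* lay at 193.7 to 228.08 TPM with the label *Nup210*-/- and at 197.68 to 220.86 TPM with the other, and only its highest library reached the range of *Mrps21*, whose lowest was 225.92 TPM. At the other end, *Mrpl57*, *Mrpl39* and *Mrps2* had mean levels of 10.4, 11.8 and 12.7 TPM, and their ranges overlapped. Within libraries *Mrpl57* was the lowest of these except in *Nup210*-/- replicate 4, where it was the highest. The order of *Mrpl39* and *Mrps2* differed between libraries.

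**Figure D1:**
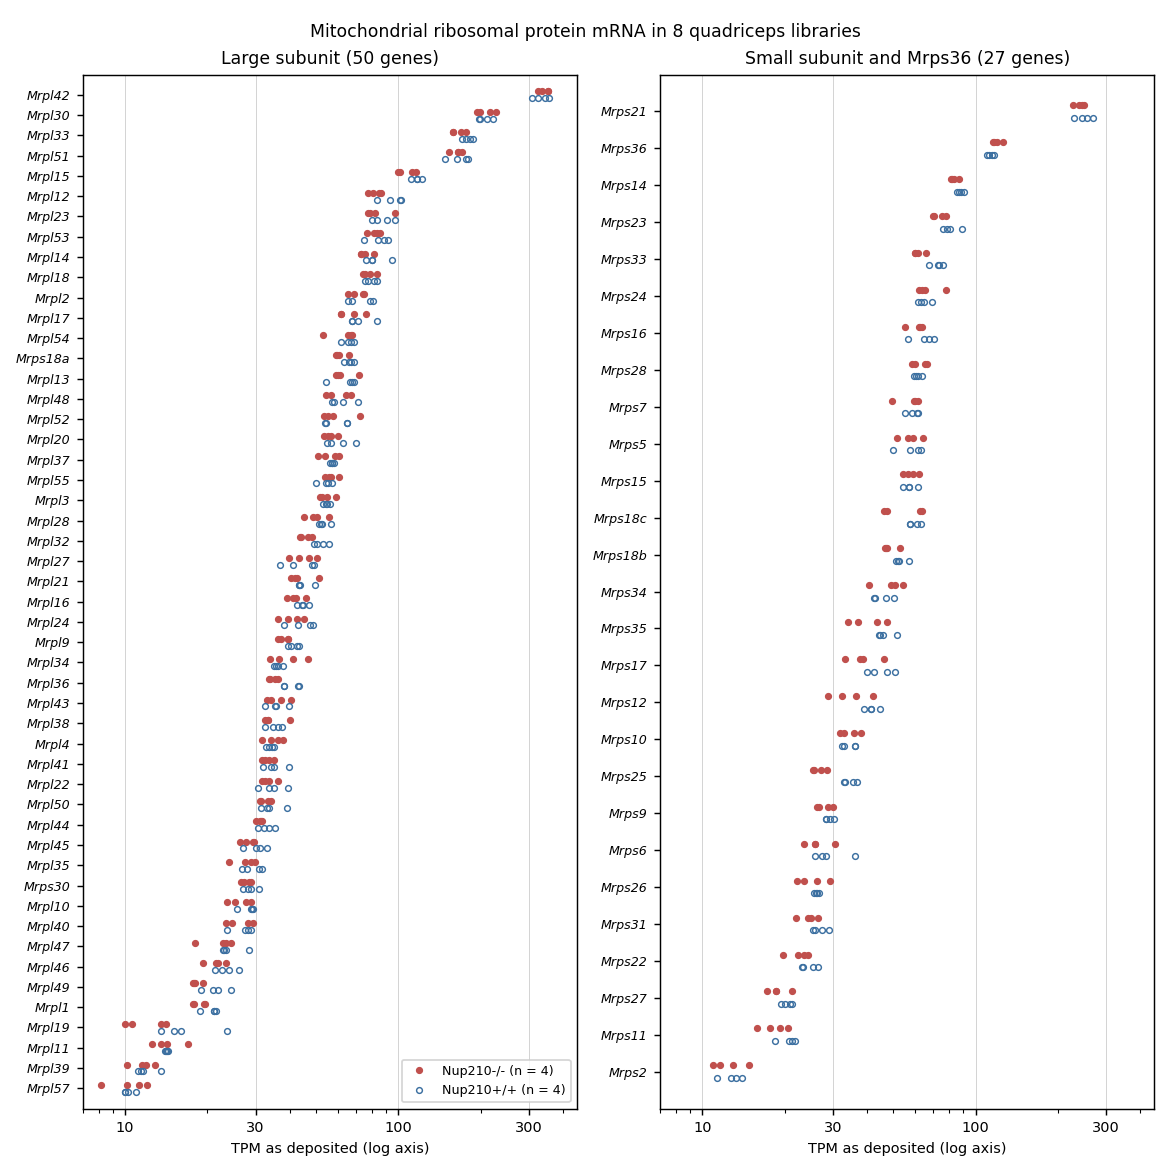
TPM of the 77 genes in 8 libraries, on a log axis, with genes ordered by mean level and split into the large subunit (left) and the small subunit with *Mrps36* (right). Filled points are the 4 libraries labelled *Nup210*-/-, open points the 4 labelled *Nup210*+/+, and levels ran from 8.15 TPM for *Mrpl57* to 354.6 TPM for *Mrpl42* with overlap of the genotypes in most rows.

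After scaling, the level of the group differed more between mice of a genotype than between the genotype means. TPM were scaled by the median of ratios, which reduces differences in library composition, and log2(scaled TPM + 1) was taken. The mean deviation of the 77 genes from the 8-library mean was -0.01, -0.06, 0.02 and 0.07 in replicates 1 to 4 labelled *Nup210*-/- and -0.01, -0.0019, -0.11 and 0.09 in those labelled *Nup210*+/+. The genotypes overlapped, and the highest and the lowest libraries, replicates 4 and 3, both carried the label *Nup210*+/+. Between these libraries the difference ran through nearly the whole group. In replicate 3, 66 of the 77 genes (85.7%) were lower than in replicate 4, against 49.2% of all genes tested and 60.4% of the 5698 genes in the same TPM range. The median difference was -0.21 for the group and -0.07 for genes in that range. The size of this gap rests on the scaling. As deposited, 35 of the 77 (45.5%) were lower in replicate 3, against 24.2% of all genes tested, and the summed TPM of the group was 4531.95 and 4548.22. Summed as deposited, the group was at 4384 ± 151 TPM with the label *Nup210*-/- and 4573 ± 39.4 TPM with the label *Nup210*+/+ (SD, n = 4), and *Nup210*-/- replicates 1, 2 and 4 lay below every library labelled *Nup210*+/+, whereas replicate 3, at 4576.3 TPM, lay among them. Replicate 3 also had the highest summed TPM of 6 leukocyte markers (280.42, against 112.97 to 201.12 in the other libraries), of 5 adipocyte markers (632.51, against 203.73 to 389.54) and of 4 fibroblast markers (1047.73, against 526.39 to 776.46), and the lowest of 8 myofiber markers (89645.49, against 93845.45 to 104537.79). The part of these cells in the result was not tested.

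**Figure D2:**
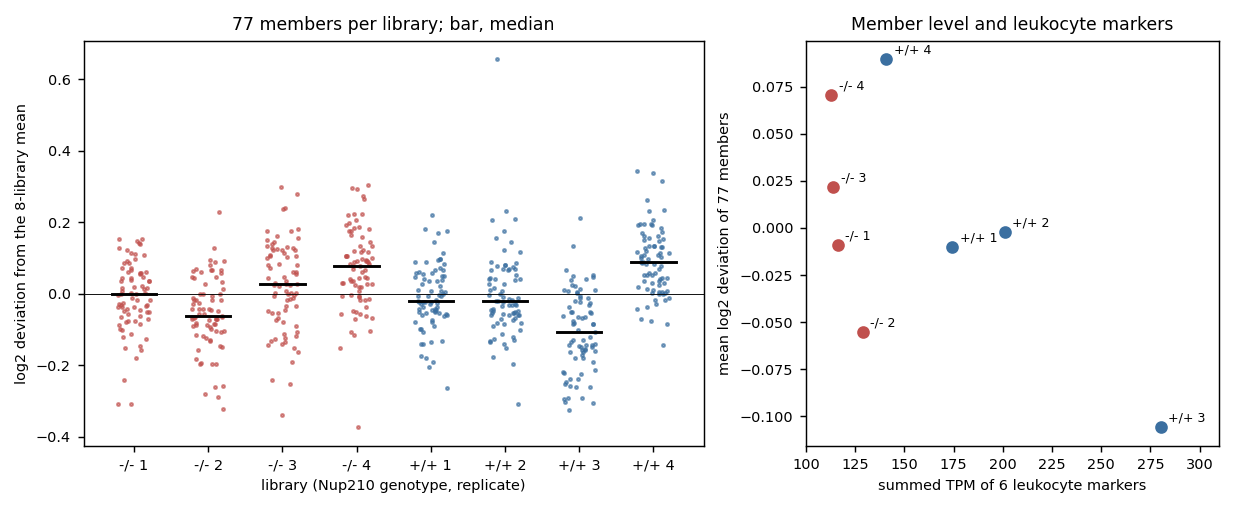
Left, log2 deviation of scaled TPM of each of the 77 genes from its 8-library mean in each library, with the median as a bar; right, the mean deviation of the group against the summed TPM of 6 leukocyte markers, 1 point per library. Red marks libraries labelled *Nup210*-/- and blue those labelled *Nup210*+/+, whose replicate 3 is lowest in the scaled level, at -0.11, and highest in the markers, at 280.42 TPM. On TPM as deposited it is not the lowest, since *Nup210*-/- replicates 1, 2 and 4 had lower sums.

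The genotypes were compared with limma over the 14229 genes that passed the filter, with Benjamini-Hochberg adjustment over all of them. No mitochondrial ribosomal protein gene passed an adjusted p of 0.05, and none did under any of the 20 alternatives. Over all genes tested, 16 passed (0.112%, with 0.0492% positive and 0.0633% negative), so that 0 of 77 is near the background. The lowest adjusted p in the group was 0.230, for *Mrps25*. By the unadjusted p, 3 members were under 0.05 (3.9%), against 14.2% of all genes tested. This count was 1 without *Nup210*+/+ replicate 2, 1 without *Nup210*-/- replicate 4, 5 without *Nup210*-/- replicate 2 and 7 without *Nup210*+/+ replicate 4. Over all genes tested the count moved as well. It was 2017 with all libraries, and in the same order of left-out libraries it was 1837, 1644, 1827 and 2681.

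The estimates lay close together. The median log2 fold change of the 77 genes (libraries labelled *Nup210*-/- minus *Nup210*+/+) was 0.02, with quartiles of -0.03 and 0.07, whereas the quartiles over all genes tested were -0.15 and 0.11 around a median of -0.01. For the 5698 genes in the members' TPM range the median was 0.03 and the quartiles were -0.07 and 0.12. Positive estimates numbered 46 (59.7%, against 48.7% of all genes tested and 59.7% of genes in the members' TPM range) and negative ones 31. Without *Nup210*+/+ replicate 2 the median was 0.03, and it was -0.02 without *Nup210*+/+ replicate 3 and -0.01 without *Nup210*-/- replicate 4. With TPM as deposited it was -0.07, beside a shift of the median of all genes to -0.08. Some lists of cell type markers had all their estimates in the same direction. All 6 leukocyte, 5 adipocyte, 4 fibroblast and 5 erythroid markers had negative estimates and all 8 myofiber markers positive ones. The 6 granulocyte precursor and 5 tested dividing cell markers were also negative, and the 2 satellite cell markers positive. Summed granulocyte precursor and dividing cell markers were high only in *Nup210*+/+ replicate 2, at 381.69 and 58.8 TPM. In the other libraries they were 0.31 to 2.12 and 1.51 to 3.48 TPM, with overlap of the genotypes. Other lists were mixed. Of 4 slow myofiber markers 1 estimate was positive and 3 negative. For 4 endothelial markers these numbers were 2 and 2, and for 3 Schwann cell markers 1 and 2. Summed leukocyte markers were 112.97 to 128.99 TPM with the label *Nup210*-/- and 140.93 to 280.42 TPM with the label *Nup210*+/+. Sums of fibroblast and of myofiber markers also did not overlap between genotypes. In the same order of labels, adipocyte sums (203.73 to 389.54 and 245.95 to 632.51 TPM) overlapped. So did erythroid sums (879.66 to 2687.63 and 1215.64 to 5304.63 TPM) and satellite cell sums (1.3 to 2.47 and 1.32 to 1.97 TPM). No marker was at 0 in every library, and the part of these cells in the members' estimates was not tested.

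The intervals bound what could have been missed. For 76 of the 77 genes (98.7%) the 95% interval of the difference from limma lay inside a 1.5-fold change either way, against 73.1% of all genes tested. The exception was *Mrpl19*, with an interval from 0.601 to 1.00-fold. These intervals are not adjusted for the number of genes. The spread between mice of a genotype had a median SD of 0.12 on the log2 scale, beside 0.17 for all genes tested and 0.13 for genes in the same TPM range.

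**Figure D3:**
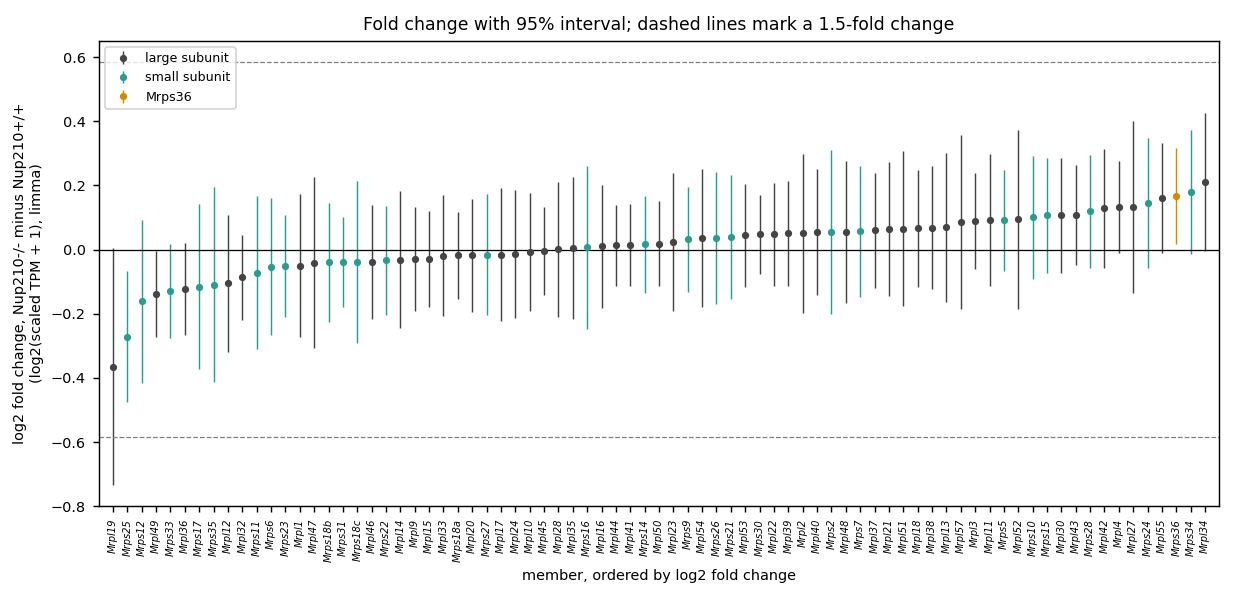
Log2 fold change of each of the 77 genes, libraries labelled *Nup210*-/- minus *Nup210*+/+, with the 95% interval from limma (n = 4 per genotype), ordered by size and colored by subunit. Dashed lines mark a 1.5-fold change, which only the interval of *Mrpl19* crosses, and 3 intervals, of *Mrps25*, *Mrpl49* and *Mrps36*, leave out 0.

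Among the large-subunit genes, 32 estimates were positive and 18 negative, with a median of 0.03 (-0.06 with TPM as deposited, -0.0035 without *Nup210*+/+ replicate 3 and -0.0044 without *Nup210*-/- replicate 4), and none passed the adjusted threshold. The lowest estimate of the group was that of *Mrpl19*, the counterpart of a bacterial protein at the interface of the subunits. It was 10.62, 13.51, 14.11 and 10 TPM across replicates 1 to 4 labelled *Nup210*-/- and 13.58, 23.67, 15.96 and 15.14 TPM in those labelled *Nup210*+/+. The genotypes overlapped, and the highest value belonged to *Nup210*+/+ replicate 2. The log2 fold change was -0.37 (SE 0.163, adjusted p = 0.356 by limma) and was -0.21 without that library. Its exons share 1962 bases with *Gcfc2* on the opposite strand, which had a positive estimate of 0.59 (SE 0.251, adjusted p = 0.337 by limma).

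*Mrpl49*, which encodes a protein of the large subunit that bacteria lack, was 17.7, 19.28, 18.01 and 17.85 TPM across replicates 1 to 4 labelled *Nup210*-/- and 21.06, 21.88, 24.49 and 18.9 TPM in those labelled *Nup210*+/+. On the deposited scale replicate 2 of the first genotype and replicate 4 of the second overlapped, and after scaling they did not. The log2 fold change was -0.14 (SE 0.0595, adjusted p = 0.340 by limma). The exact permutation test (two-sided, over the 70 ways to label 4 of 8 libraries, smallest possible p 0.0286) gave p = 0.0286 on scaled and 0.0571 on deposited values. *Mrpl49* starts 59 bases from *Fau*, which encodes a protein of the cytoplasmic ribosome and had an estimate of -0.27 (SE 0.144, adjusted p = 0.428 by limma), with its highest value, 123.22 TPM, in *Nup210*+/+ replicate 2, without which the estimate was -0.15.

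The largest positive estimates in the large subunit were those of *Mrpl34* and *Mrpl55*. *Mrpl34* was 33.96, 36.54, 46.79 and 41.26 TPM across replicates 1 to 4 labelled *Nup210*-/- and 35.06 to 37.73 TPM in the other genotype. The first replicate thus lay below all libraries labelled *Nup210*+/+ on the deposited scale. Its log2 fold change was 0.21 (SE 0.0949, adjusted p = 0.360 by limma), and that of *Mrpl55* was 0.16 (SE 0.0761, adjusted p = 0.380 by limma).

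The stalk of the large subunit recruits translation factors. *Mrpl12*, which forms it, was 77.12, 80.79, 86.47 and 85.13 TPM across replicates 1 to 4 labelled *Nup210*-/- and 102.09, 83.12, 93.33 and 101.05 TPM in those labelled *Nup210*+/+. The genotypes overlapped, with a log2 fold change of -0.10 (95% interval -0.32 to 0.11), or -0.17 without *Nup210*+/+ replicate 2. For *Mrpl10* and *Mrpl11*, at its base, the estimates were -0.01 (95% interval -0.19 to 0.18) and 0.09 (95% interval -0.11 to 0.30). *Mrpl3*, near the site of peptide bond formation, was 54.5 ± 3.27 and 54.5 ± 1.23 TPM (SD, n = 4), with an estimate of 0.09 after scaling (95% interval -0.06 to 0.24). *Mrps30* was 27.8 ± 1.11 TPM with the label *Nup210*-/- and 28.7 ± 1.61 TPM with the label *Nup210*+/+ (SD, n = 4), and had the lowest spread within genotypes of the 77 genes, 0.044 on the log2 scale.

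Among the small-subunit genes, 13 estimates were positive and 13 negative, with a median of -0.0046 (0.01 without *Nup210*+/+ replicate 2 and -0.10 with TPM as deposited), and none passed the adjusted threshold. *Mrps25* encodes a protein of the small subunit without a bacterial counterpart. It was 25.66, 28.52, 25.48 and 27.18 TPM across replicates 1 to 4 labelled *Nup210*-/- and 35.52, 33.21, 32.91 and 36.92 TPM in those labelled *Nup210*+/+. Every library of the first genotype lay below every library of the second, on the deposited and the scaled values, although after scaling the closest libraries, at 29.04 and 29.30, nearly met. The log2 fold change was -0.27 (SE 0.0899, adjusted p = 0.230 by limma, and p = 0.0286 in the exact permutation test), and it was -0.29 without *Nup210*+/+ replicate 2. *Mrps25* lies at chr6:92169525-92184033 on GRCm38, 1.05 Mb from *Nup210*, and is the member nearest to it. Of the 29 genes tested within 1.5 Mb of *Nup210*, *Mrps25* included, 4 had an unadjusted p under 0.05 (13.8%) and 3 did not overlap between genotypes (10.3%), near the 14.2% and 9.38% of all genes tested. The exons of *Mrps25* share 4590 bases with *Nr2c2* on the opposite strand, whose estimate was 0.17 (SE 0.104, adjusted p = 0.483 by limma). The libraries mark strand, but whether the authors' estimates used it is not given in the sources used here.

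On scaled values *Mrps25* and *Mrpl49* were the only 2 of the 77 genes without overlap of the genotypes (2.6%, both lower in the libraries labelled *Nup210*-/-), against 4.6% of all genes tested in that direction and 4.78% in the other, in which no member was found. On TPM as deposited the count was 5, all lower (*Mrps25*, *Mrps33*, *Mrpl36*, *Mrpl32* and *Mrpl9*), against 6.87% of all genes tested. The last 3 were named after their values were seen. *Mrps33* was 61.8 ± 2.72 and 72.4 ± 3.42 TPM (SD, n = 4), but its scaled values overlapped, with a log2 fold change of -0.13 (SE 0.0647, adjusted p = 0.396 by limma).

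*Mrps12*, whose protein lines the decoding site, was 28.83, 32.52, 42.05 and 36.56 TPM across replicates 1 to 4 labelled *Nup210*-/- and 41.39, 44.53, 39.08 and 41.28 TPM in those labelled *Nup210*+/+. The genotypes overlapped, and the lowest values were replicates 1 and 2 of the first. Its log2 fold change was -0.16 (95% interval -0.42 to 0.09). The divergent *Sars2* had an estimate of 0.01 (95% interval -0.19 to 0.21). In the other direction, *Mrps34* had 40.75, 49.03, 50.8 and 54.09 TPM across replicates 1 to 4 labelled *Nup210*-/- and 42.65, 47.01, 50.32 and 42.57 TPM in the others, which overlapped, with a log2 fold change of 0.18 (95% interval -0.01 to 0.37). It shares exon sequence with *Nme3* on the same strand. *Mrps24* and *Mrps28* had estimates of 0.15 and 0.12, with limma adjusted p of 0.483 and 0.508.

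The 3 genes of the S18 family descend from a single bacterial gene. *Mrps18c* keeps the bacterial place in the small subunit, *Mrps18b* sits elsewhere in it, and *Mrps18a* is part of the large subunit. Their levels were alike, with means of 57.3 TPM for *Mrps18c*, 50.8 TPM for *Mrps18b* and 63.8 TPM for *Mrps18a*. Log2 fold changes were -0.04 (95% interval -0.29 to 0.21), -0.04 (95% interval -0.22 to 0.15) and -0.02 (95% interval -0.15 to 0.12). The spread between the libraries labelled *Nup210*-/- was widest in *Mrps18c*, which had 47.45, 46.09, 63.72 and 62.33 TPM.

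*Mrps36*, the gene named as a ribosomal protein and assigned to 2-oxoglutarate dehydrogenase, had the lowest unadjusted p among the positive estimates (0.0321). It was 119.28, 115.96, 116.45 and 125.82 TPM across replicates 1 to 4 labelled *Nup210*-/- and 114.58, 110.36, 117 and 111.82 TPM in those labelled *Nup210*+/+. The genotypes overlapped through replicate 3 of the second. The log2 fold change was 0.17 (SE 0.0659, adjusted p = 0.301 by limma). The genes of the catalytic components of that complex, *Ogdh*, *Dlst* and *Dld*, had estimates of 0.10, 0.01 and 0.03 (0.05, -0.03 and 0.0043 without *Nup210*+/+ replicate 2), with limma adjusted p of 0.567, 0.952 and 0.845. Pseudogenes of *Mrps36* were listed at 0 in most libraries (at most 6.35 TPM), whereas the pseudogene *Mrpl23-ps1* was at 25.05 to 39.07 TPM beside 77.49 to 97.32 TPM for *Mrpl23*, so that the split of reads between these copies is uncertain.

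The ratio of the summed TPM of the large-subunit genes to that of the small-subunit genes, which scaling does not touch, was 2.25, 2.20, 2.22 and 2.20 in replicates 1 to 4 labelled *Nup210*-/- and 2.19, 2.18, 2.17 and 2.15 in those labelled *Nup210*+/+. The genotypes did not overlap, by a margin smaller than the spread within either. This rests on few genes. With the small-subunit genes *Mrps25* and *Mrps33* left out, chosen after their values were seen, the genotypes overlapped. The ratio was then 2.35 to 2.41 with the label *Nup210*-/- and 2.34 to 2.36 with the label *Nup210*+/+. By the mean log2 deviation of the subunits in place of summed TPM, the large minus the small subunit was -0.01 to 0.03 and -0.04 to 0.01, with overlap.

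Within the subunits, genes were also split by origin. Of 20 large-subunit genes whose proteins bacteria lack, 17 estimates were positive and 3 negative, with a median of 0.05, and of 30 with a bacterial counterpart 15 were positive and 15 negative, with a median of -0.0029. In the small subunit the split ran the other way. Of 10 genes specific to mitochondria 2 estimates were positive and 8 negative, with a median of -0.04, and of 16 with a bacterial counterpart 11 were positive and 5 negative, with a median of 0.04. Positive estimates made up 48.7% of all genes tested and 59.7% of genes in the members' TPM range. Without *Nup210*+/+ replicate 2 the medians of genes specific to mitochondria were 0.048 (large) and -0.027 (small). Those of genes with a bacterial counterpart were then 0.032 (large) and 0.029 (small). With TPM as deposited all 4 medians were negative, from -0.13 for the small-subunit genes specific to mitochondria to -0.04 for the large-subunit genes specific to mitochondria. The assignment was not uniform for the S18 genes, which descend from a single bacterial gene. *Mrps18b* (estimate -0.04) was counted as specific to mitochondria, and *Mrps18a* and *Mrps18c* as having a bacterial counterpart. The counts and medians rest on this assignment, and the differences between these classes were not tested.

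Proteins of the mitochondrial ribosome with other names, its assembly factors and the rest of the machinery of mitochondrial gene expression were read from the same comparison. Over 6 lists holding 103 tested genes, none passed an adjusted p of 0.05. The unadjusted p was under 0.05 for 3 positive estimates (2.91%) and 1 negative estimate (0.971%), against 7.0% and 7.18% of all genes tested. On scaled values the genotypes did not overlap for 3 higher genes (2.91%, *Eral1*, *Iars2* and *Elac2*) and 1 lower gene (0.971%). Over all genes tested these shares were 4.78% and 4.6%. The median log2 fold change was 0.02, and with TPM as deposited it was -0.07 and the median of each of the 6 lists was negative.

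The 6 ribosomal proteins with other symbols, among them *Dap3* of the small subunit, had a median of -0.01 (-0.02 without *Nup210*+/+ replicate 2). *Gadd45gip1*, with the lowest p of these, had an estimate of -0.05 (adjusted p = 0.818 by limma), or -0.10 without *Nup210*+/+ replicate 2. The 25 assembly factors had a median of 0.01, which was -0.0080 without *Nup210*+/+ replicate 2. *Eral1*, a GTPase that binds the RNA of the small subunit, averaged 15.3 TPM with the label *Nup210*-/- and 14.4 TPM with the label *Nup210*+/+, with an estimate of 0.17 (SE 0.0701, adjusted p = 0.309 by limma). For the 18 translation factors the median was 0.05, and *Rmnd1* had the lowest p, with an estimate of 0.20 (adjusted p = 0.421 by limma). Without *Nup210*+/+ replicate 2 this median was 0.01 and the estimate of *Rmnd1* 0.12. For the 20 genes of mitochondrial aminoacyl-tRNA synthesis the median was 0.02, and *Iars2*, the isoleucyl-tRNA synthetase, had an estimate of 0.13 (adjusted p = 0.365 by limma).

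Among 25 genes of mitochondrial DNA and RNA, 18 estimates were positive and 7 negative, with a median of 0.05. *Elac2*, the nuclease that trims the 3′ ends of tRNA precursors, was 10.82, 11.07, 13.53 and 11.32 TPM across replicates 1 to 4 labelled *Nup210*-/- and 9.37, 10.71, 11.62 and 8.89 TPM in those labelled *Nup210*+/+. The deposited values overlapped and the scaled ones did not, with a log2 fold change of 0.28 (SE 0.0809, adjusted p = 0.197 by limma). *Polg*, the polymerase of mitochondrial DNA, had an estimate of 0.48 (SE 0.179, adjusted p = 0.282 by limma). *Pnpt1*, an exoribonuclease of mitochondrial RNA, ranged over 11.09 to 11.56 TPM with the label *Nup210*-/- and 13.16 to 14.6 TPM with the label *Nup210*+/+, without overlap, with a log2 fold change of -0.18 (SE 0.0587, adjusted p = 0.215 by limma). The 9 regulators of nuclear mitochondrial genes had a median of -0.09, with *Nrf1* at 0.14 (95% interval -0.18 to 0.46), *Gabpa* at -0.09 (95% interval -0.42 to 0.25, estimate without *Nup210*+/+ replicate 2 -0.13) and *Yy1* at 0.0026 (95% interval -0.15 to 0.15).

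Other groups of genes for ribosomes and oxidative phosphorylation were read in the same way. Of 91 genes for proteins of the cytoplasmic ribosome, 74 estimates were negative, with a median of -0.13, which was -0.02 without *Nup210*+/+ replicate 2 and -0.23 with TPM as deposited. Of 83 nuclear genes for the respiratory chain and ATP synthase, 72 estimates were positive, with a median of 0.05, which was 0.02 without that library and -0.04 with TPM as deposited. The 13 proteins encoded by mitochondrial DNA, the products of this ribosome, had 12 positive estimates and a median of 0.17, which was 0.08 with TPM as deposited. No gene of these 3 groups passed an adjusted p of 0.05, and the differences between groups were not tested.

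**Figure D4:**
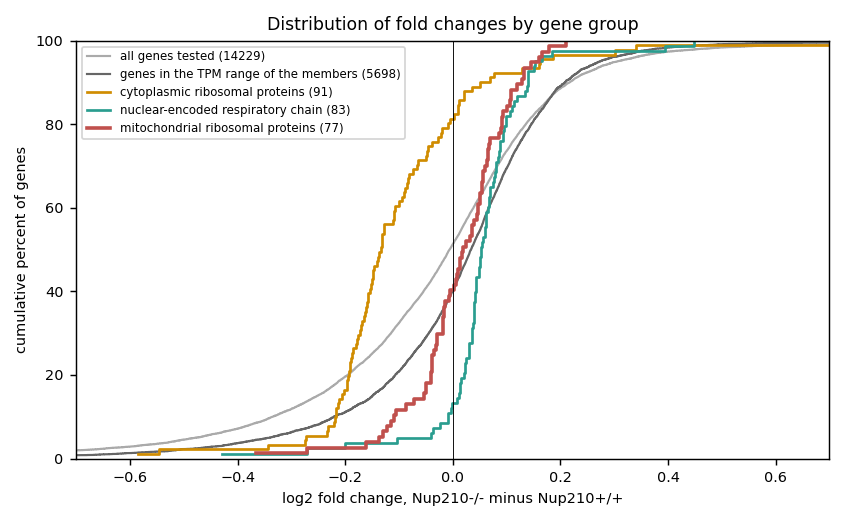
Cumulative percent of genes against log2 fold change, libraries labelled *Nup210*-/- minus *Nup210*+/+, for all genes tested, genes in the TPM range of the members, and 3 groups of genes, with the number of genes in parentheses. The line of the 77 mitochondrial ribosomal genes is steep around its median of 0.02 (-0.07 with TPM as deposited). This median lies between those of the cytoplasmic ribosome (-0.13, or -0.23 with TPM as deposited) and the respiratory chain (0.05, or -0.04 with TPM as deposited). That order rests on *Nup210*+/+ replicate 2. Without it the medians were 0.03 for the 77 genes, -0.02 for the cytoplasmic ribosome and 0.02 for the respiratory chain. No gene of the 3 groups passed an adjusted p of 0.05.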

How the data were processed

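The authors sequenced poly(A) RNA from directional libraries as single 75-base reads, trimmed them with cutadapt 2.3, aligned them to mm10 with STAR 2.7.0d and estimated expression with RSEM 1.3.1 and Ensembl release 84 annotation. The values they deposited are TPM per gene and library, without pooling and without a filter on low values. Their count test could not be repeated from TPM. Each library sums to 1000000, and depth is unknown.

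Each library was scaled by its median ratio to a reference, the geometric mean over libraries, taken across 15225 genes above 0 throughout. The 14229 genes whose mean reached 0.5 TPM went into limma (version 3.58.1, R 4.3.3, intensity trend, genotype as the only term) on log2(scaled TPM + 1), with Benjamini-Hochberg adjustment over all genes tested. This scale understates changes of low genes. Nothing beyond 1 library per mouse describes the replicates. The limma step alone was run on simulated data in which genes varied independently. That run did not include the filter or the scaling, nor shifts shared by many genes of a library.

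The group and all lists were chosen with earlier results of these data known, and subunit roles were written from general knowledge. Genes described are those past an adjusted p of 0.05, the 5 lowest and 5 highest fold changes, the 3 highest and 3 lowest levels, those without overlap, and 12 chosen for their role (*Mrpl58* was absent under that symbol), and per list the gene with the lowest p. *Polg* and *Pnpt1* were described outside this rule. Also described were *Nrf1*, *Gabpa* and *Yy1*, genes of the factors in the promoter search. Neighboring, overlapping and 2-oxoglutarate dehydrogenase genes, the window around *Nup210* and the subunit ratio were chosen after values were seen. Coordinates are from GENCODE M21 (GRCm38), matched for 77 of 77 genes. The exons of 32 members overlap another gene, of which 8 on the same strand. Alternatives covered pseudocounts, filters, scalings, eBayes settings, library weights, a replicate block and each library left out. Plots used matplotlib 3.10.9 (Python 3.11.15).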

Additional observations from a re-analysis of the deposited data

Results flagged for a closer look

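For the described members and 3 values per library, the gap of the highest and lowest library to its neighbor was divided by the range of the 4 libraries of a genotype. Of 56 groups checked this way, 1 exceeded the limit that chance passes in about 1 of 20. *Mrpl55* stood at 54.7 scaled TPM in the library labelled *Nup210*-/- replicate 2, while the remaining libraries of that genotype had 59.6 to 60.4 (gap 0.865 of the range).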

How the results depend on the processing

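No member passed an adjusted p of 0.05 under any of the 20 alternatives, where the lowest adjusted p was 0.0963, for *Mrps25* with TPM as deposited. Of 500 values of described members, 482 kept their direction and their side of the threshold. Those that reversed lay near 0. With TPM as deposited, the log2 fold changes became -0.00092 for *Mrpl57*, -0.037 for *Mrpl39*, -0.032 for *Mrps2*, -0.054 for *Mrps21*, -0.044 for *Mrps30* and -0.0033 for *Mrpl3*. Upper-quartile scaling gave 0.018 for *Mrpl10* and 0.0078 for *Mrps18a*. Leaving out libraries gave ranges of -0.035 to 0.11 for *Mrps2*, -0.039 to 0.079 for *Mrps21*, -0.049 to 0.045 for *Mrpl10*, -0.039 to 0.017 for *Mrps18a* and -0.12 to 0.047 for *Mrps18c*. The causes were not tested.

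TPM as deposited also moved the medians, to -0.073 for all members, -0.064 for the large subunit, -0.096 for the small subunit and -0.069 for the other genes of mitochondrial translation, and the members without overlap and lower to 5; upper-quartile scaling made that count 1. TPM rescaled without mitochondrially encoded genes and the 20 highest genes gave 1 member without overlap and higher. Without single libraries, that count ran from 0 to 4 (4 without *Nup210*+/+ replicate 4 or *Nup210*-/- replicate 2) and the lower count from 2 to 4 (4 without *Nup210*+/+ replicate 1). Leaving out a library also makes overlap less frequent among all genes. Without *Nup210*+/+ replicate 2, 6.54% of all genes tested were without overlap and higher and 6.56% lower. With all libraries these shares were 4.78% and 4.6%. Shares for the other libraries left out are not given here. Of all genes, 0 passed with a minimum of 0.1 TPM, upper-quartile scaling, eBayes without trend or the replicate block (2244, 2071, 1952 and 1850 genes at an unadjusted p of 0.05), 1 with no filter, 27 with a minimum of 1 TPM and 84 with library weights; without single libraries the number ran from 0 to 10 (10 without *Nup210*+/+ replicate 4, at most 2 otherwise). Same-numbered mice are different animals, whose deviations correlated at -0.03 to 0.09, beside -0.08 to 0.10 for mice with different numbers. The labels do not say whether the numbers pair the mice, and these values cannot settle it. Because depth is unknown, no counting error can be given.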

Other observations

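Of the divergent neighbors of the mitochondrial ribosomal genes, chosen after their values were seen, 20 were tested. The adjusted p from limma was under 0.05 for 0, against 0.112% of all genes tested, and the unadjusted p for 4, against 14.2%. *Mitd1*, which starts 66 bases from *Mrpl30*, had a log2 fold change of -0.78 (SE 0.195, adjusted p = 0.154 by limma), beside 0.11 (95% interval -0.07 to 0.29) for *Mrpl30*. *Hira*, a histone chaperone gene 175 bases from *Mrpl40*, had an estimate of 0.23 (SE 0.0650, adjusted p = 0.189 by limma), beside 0.05 (95% interval -0.14 to 0.25) for *Mrpl40*. The difference within these pairs was not tested.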
